A study of Mus musculus with 8 samples.

Results

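Cytoplasmic ribosomal protein genes encode the protein subunits of the 40S and 60S parts of the ribosome that translates nuclear messenger RNA. The 4 genes described here, Rps20, Rps6, Rpl11 and Rpl22, were chosen by name as ribosomal protein genes of mouse chromosome 4. The rule used no timing value, but the choice was made with earlier results of these data known. They are 4 of 1301 protein-coding genes of that chromosome with a replication timing value. Every one of them replicated early in all profiles, as did 79.7% of the measured protein-coding genes. None was among the earliest genes of the chromosome, and deletion of a Klf4 enhancer went with no timing difference that passed the test. Rps20 was the latest of the group in every profile.

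The timing profiles came from mouse embryonic stem cells. Control cells were of the line JM8N4, and the other group lacked an enhancer of Klf4, which encodes a pluripotency transcription factor and lies on the same chromosome. No further treatment is named for either group. Zygosity, clone number and the deleted coordinates are not given in the sources used here. Repli-seq was used, in which cells take up the thymidine analog BrdU (here for 2 h), are sorted by DNA content into an early and a late S-phase fraction, and the labelled DNA of each fraction is sequenced. The 8 libraries, early and late fractions in pairs, made 4 profiles: control 1 and 2, and deletion 1 and 2. Nothing says that these came from separate cultures, so p-values measure only the spread between these profiles, which may be technical.

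Large parts of a chromosome replicate together as domains, and domains that are rich in active genes usually replicate in early S phase. Genes for ribosomal proteins are expressed at high levels in proliferating cells, because each new ribosome needs a copy of nearly every such protein. Their messenger RNAs typically begin with a run of pyrimidines, the 5′ terminal oligopyrimidine tract, through which mTOR signalling controls their translation. Rps20 and Rps6 belong to the small subunit and Rpl11 and Rpl22 to the large one. Rps6 is the substrate of the S6 kinases, Rpl11 binds Mdm2 and takes part in p53 control when ribosome assembly is disturbed, and Rpl22 has a paralog, Rpl22l1, whose expression it restrains.

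The timing score compares early with late signal. The sources used here do not give its log base, and it is printed without a unit. Above 0 was taken as early. That direction rests on gene content: 79.7% of measured protein-coding genes scored above 0 in every profile, against 43.1% of the 30659 analysed positions. Positions are spaced 5 kb apart, and the score changed by a median of 0.017 from one to the next. Each ribosomal protein gene was scored by averaging the 2 or 3 bins that overlap it, and its score cannot be separated from that of the DNA just beside it. The table holds no read counts, so depth is unknown. Cell identity could not be checked against marker RNAs, since only DNA was measured.

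The start-site sequences are shown because the pyrimidine tract is what these genes are known to share besides their product. They cover 70 bases before and 30 bases from each annotated start, 5′ to 3′ on the gene's strand, from RefSeq on GRCm38.p6 (the build called mm10), and capitals mark every run of 5 or more pyrimidines that begins with C. The RefSeq promoter table held 3 of the 4 genes, with 1 start each for Rps6 and Rpl11 and both an upstream and a downstream start for Rpl22. Rps20 had no entry.
Rps6, chr4:86857338-86857437, minus strand: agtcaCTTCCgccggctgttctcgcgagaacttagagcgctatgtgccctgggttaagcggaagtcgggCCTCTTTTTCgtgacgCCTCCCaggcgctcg
Rpl11, chr4:136053364-136053463, minus strand: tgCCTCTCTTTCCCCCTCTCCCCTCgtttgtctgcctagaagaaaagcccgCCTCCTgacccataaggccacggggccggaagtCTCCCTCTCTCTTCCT
Rpl22 upstream start, chr4:152324366-152324465, plus strand: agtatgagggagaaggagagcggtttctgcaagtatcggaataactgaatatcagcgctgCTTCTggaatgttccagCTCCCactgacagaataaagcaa
Rpl22 downstream start, chr4:152325656-152325755, plus strand: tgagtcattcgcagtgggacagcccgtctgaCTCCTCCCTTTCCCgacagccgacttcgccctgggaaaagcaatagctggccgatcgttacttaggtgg

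In Rps6 a run of 10 pyrimidines, CCTCTTTTTC, began 1 base before the annotated start and spanned it. Rpl11 had no run beginning within 10 bases of its annotated start. The run that began nearest to that start, of 16, CTCCCTCTCTCTTCCT, began 14 bases after it. A run of 6, CCTCCT, began 19 bases before the start, and the longest, of 23, began 68 bases before. At the upstream start of Rpl22 a run of 5, CTCCC, began 7 bases after the start and another of 5, CTTCT, 10 bases before, and at the downstream start the nearest run, of 14, began 39 bases before. Of the 32851 promoters in the table, 30.7% held, within 10 bases of the start, a C followed by 4 or more pyrimidines. The letters TATAAA, searched on both strands over the 250 bases upstream, occurred at the upstream start of Rpl22 and at none of the other 3 starts, and in 12.4% of all promoters. A match is a description of letters and not of a working site.

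Rps20, which encodes a protein of the small subunit's head, lies at chromosome 4, 3831584 to 3835655, close to the first measured position of the chromosome at 3050000. It scored 1.48 in control 1, 1.54 in control 2, 1.86 in deletion 1 and 1.41 in deletion 2. Deletion 1 was the high profile, deletion 2 the low one, and both control profiles fell between them. Control profiles averaged 1.51 ± 0.041 and deletion profiles 1.63 ± 0.32 (SD, n = 2 each). Over the mean of the 4 profiles it ranked 916 of 1301, with rank 1 the earliest, so 29.6% of measured genes were later. Its rank by profile ran from 866 to 947.

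Rps6 lies at 86854099 to 86857367. It scored 2.54 in control 1, 3.05 in control 2, 2.69 in deletion 1 and 3.15 in deletion 2. Both profiles numbered 2 were higher than both numbered 1, and the genotypes overlapped. Control profiles averaged 2.80 ± 0.36 and deletion profiles 2.92 ± 0.32 (SD, n = 2 each). It was the earliest of the 4 genes by its mean over profiles, 2.86, with rank 405 and 68.9% of genes later, and its rank by profile ran from 301 to 524. The step from profile 1 to profile 2 was 0.51 in control and 0.45 in deletion cells, beside a median step over all genes of 0.30 and 0.38.

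Rpl11 lies at 136049354 to 136053393, between Eloa (elongin A, a transcription elongation factor) and Id3 (which blocks DNA binding by basic helix-loop-helix proteins). It scored 2.45 in control 1, 2.36 in control 2, 2.62 in deletion 1 and 2.18 in deletion 2. As for Rps20, the deletion profiles lay on either side of both controls. The genotype means were nearly equal, at 2.40 ± 0.061 for control and 2.40 ± 0.31 for deletion (SD, n = 2 each). Its rank was 738, with 43.3% of genes later, and by profile the rank ranged from 507 in deletion 1 to 860 in deletion 2.

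Rpl22 lies at 152324436 to 152334082 and scored 2.66 in control 1, 2.85 in control 2, 2.52 in deletion 1 and 2.55 in deletion 2. Each deletion profile was lower than each control profile, and Rpl22 was the only one of the 4 genes without overlap between genotypes (1 of 4 with deletion lower, 0 of 4 with deletion higher). Over all measured genes the deletion profiles were both lower in 6.53% and both higher in 15.1%. Control profiles of Rpl22 averaged 2.76 ± 0.13 and deletion profiles 2.53 ± 0.025 (SD, n = 2 each). It ranked 591 by its mean, with 54.6% of genes later, from 406 in control 1 to 740 in deletion 2. Its pooled within-genotype SD of 0.096 was small, since 6.31% of genes had a smaller one. For Rps20, Rpl11 and Rps6 that SD was 0.23, 0.22 and 0.34, and the median gene had 0.29.

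**Figure D1:**
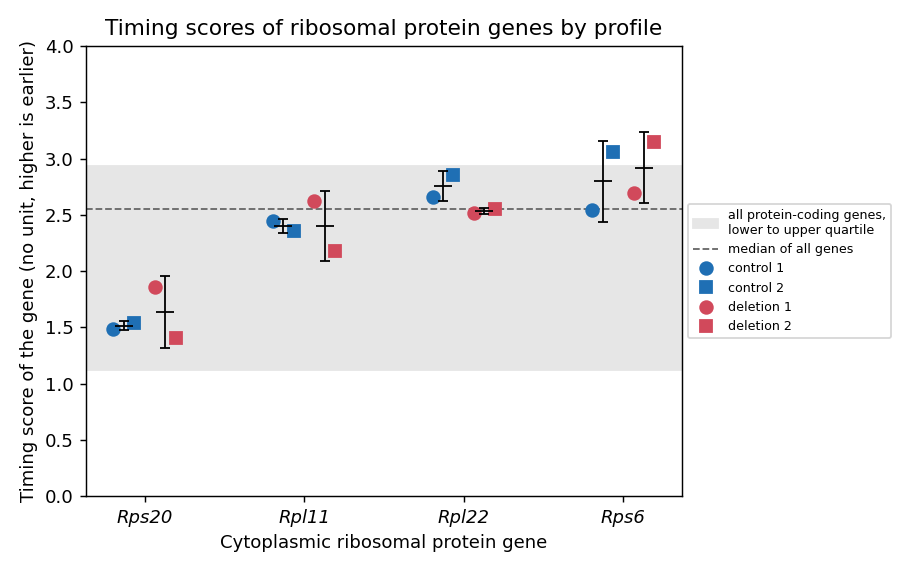
The score on the vertical axis (unitless, earlier is higher) is plotted for each cytoplasmic ribosomal protein gene in the 4 profiles, with genotype mean and SD (n = 2) in black, and with the quartiles (1.12 to 2.93, grey band) and median (2.55, dashed) of all 1301 genes. Band and median are taken from gene means over the 4 profiles. Rps20 lies below that median in every profile, and the profiles numbered 2 of Rps6 lie above the band. Ranked within a single profile, Rps6 had 76.9% of genes later in control 2 and 70.7% in deletion 2.

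By their means over profiles the order was Rps6 at 2.86, Rpl22 at 2.64, Rpl11 at 2.40 and Rps20 at 1.57. Neighbours at the early end of that order did not differ beyond the spread between profiles. Within a profile, Rps6 exceeded Rpl22 by 0.21 ± 0.29 (SD over the 4 profiles) and in 3 of 4 profiles, and Rpl22 exceeded Rpl11 by 0.24 ± 0.26, again in 3 of 4. The gap between Rpl11 and Rps20 was 0.83 ± 0.09, and its lowest value in any profile was 0.76. Rps6 exceeded Rpl11 in 4 of 4 profiles, by 0.46 ± 0.44, with a lowest value of 0.071. Rps20 was below the other 3 genes in each profile, and Rpl22 changed places with Rps6 in 1 profile and with Rpl11 in 1. The median of the 4 genes, 2.52, was close to the median of all genes, 2.55. Rps6 and Rpl22 lay above that median and Rpl11 and Rps20 below it.

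The genes differed in the domain around them. Rps20 sat near the summit of a narrow early domain by the mean of the 4 profiles. In deletion 2 its score of 1.41 lay between higher points, 1.95 at -125 kb and 1.97 at 75 kb from its middle. The nearest position scoring below 0 lay 219 kb beyond the end of the gene at higher coordinates (by the mean of the 4 profiles, with distances to such positions taken from the gene's bounds), and 204 to 239 kb by single profiles. On the lower-coordinate side it lay 342 kb away. Of the genes early in every profile, 13.8% were closer than Rps20 to a position below 0, where the median distance was 1083 kb. The nearest local maximum of the mean profile stood 63.9 kb from the middle of Rps20 and reached 1.66. Within 500 kb on each side the score averaged 0.15, so the gene exceeded its surroundings by 1.42.

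Rps6 and Rpl22 also lay in early domains with a nearby late edge. The nearest position below 0 was 318 kb from Rps6 and 346 kb from Rpl22, both at higher coordinates. Single profiles gave 293 to 358 kb for Rps6 and 336 to 366 kb for Rpl22. Rps6 exceeded the mean of its surrounding 500 kb on each side by 1.24 and Rpl22 by 0.59, against a median of 0.22 for genes early in every profile. The nearest summit lay at -53.2 kb from the middle of Rps6, with a score of 3.06. Dennd4c, the neighbour 3.50 kb below Rps6, scored 2.98, and Acer2, 17.0 kb above it, scored 2.71.

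Rpl11 lay far inside a long early domain, with a score below that of its surroundings. The nearest positions below 0 were 4434 kb and 6467 kb away on its lower and higher sides, and 97.3% of genes early in every profile were closer to one. Its surroundings averaged 2.93, and the gene was 0.53 lower. It was lower than its surroundings in every profile, by -0.32 in control 1, -0.66 in control 2, -0.15 in deletion 1 and -0.99 in deletion 2 (gene minus surroundings). Of genes early in every profile, 4.73% had a lower such value. The gene was not a local low in every profile. In deletion 1 it stood on a small rise, at 2.62 beside 2.32 at -75 kb and 2.12 at 225 kb from its middle. By the mean of the 4 profiles, the lowest point within 500 kb lay 181 kb from its middle, at 2.355. Below-median scores thus lay near the top of a weak domain by the mean profile (Rps20) and below the surroundings in a strong one (Rpl11).

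**Figure D2:**
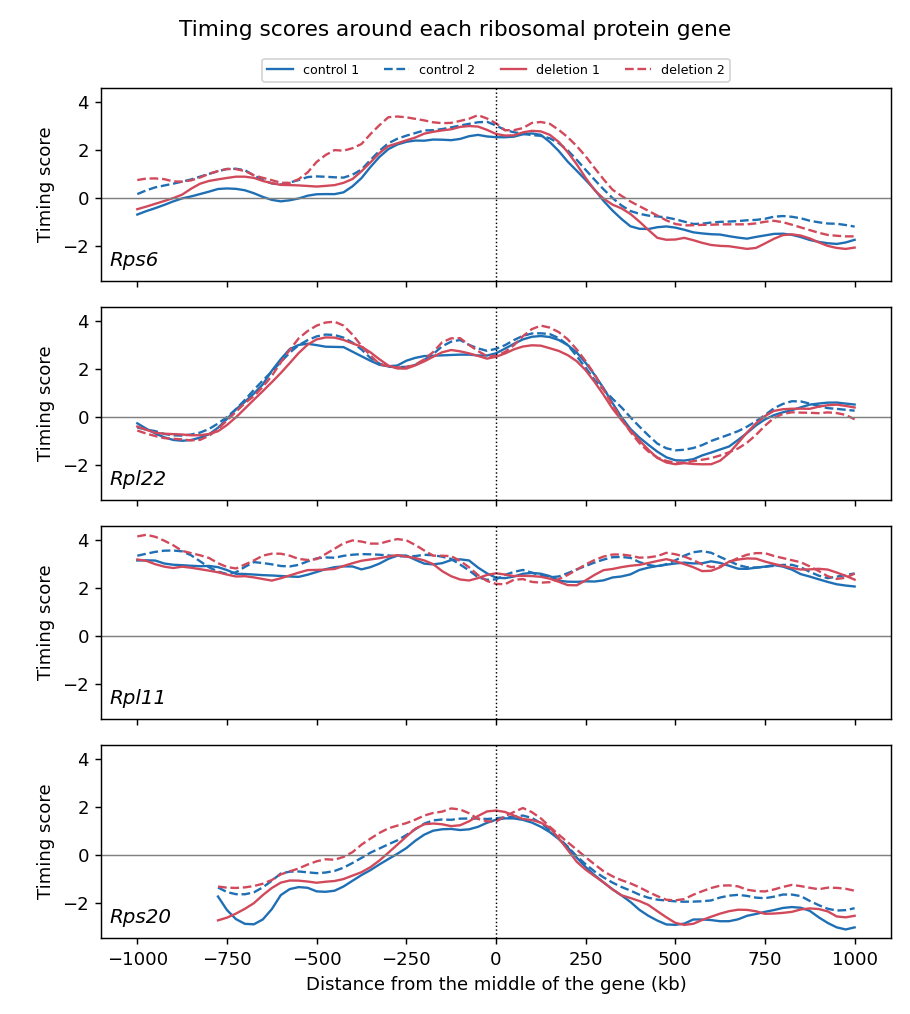
The score (vertical axis, unitless, earlier is higher) is drawn against distance from the middle of each gene in kb, for control (blue) and deletion (red) profiles 1 (solid) and 2 (dashed), with a line at 0. Rps20, Rps6 and Rpl22 lie on early domains whose mean score falls below 0 on the right, at 219, 318 and 346 kb beyond the gene's bound. Rpl11 lies below its surroundings on an early plateau that stays above 0.

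Gene density varied among them. Within 500 kb of the middle of the gene there were 9 other protein-coding genes for Rps20, 8 for Rps6, 22 for Rpl11 and 20 for Rpl22, where the median gene had 16. Rps6, the earliest of them, thus had the fewest neighbours. The nearest neighbours of Rps20 were Lyn, which encodes a Src-family kinase, 40.0 kb below it, and Mos, which encodes a kinase of oocyte maturation, 35.0 kb above it. They scored 1.44 and 1.64, beside 1.57 for Rps20. Around Rpl22 the neighbours were Rnf207 at 2.59 and Chd5, a chromatin remodeller gene, at 2.92. Eloa and Id3, on either side of Rpl11, scored 2.52 and 2.53.

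Genes more than 1 Mb away whose 4 scores were closest, by Euclidean distance over the 4 profiles, were named as a description of similar levels. For Rps6 these were Acot7, at a distance of 0.063, and Stpg1, at 0.065. Rps20 was closest to Stil (0.20) and Cmpk1 (0.21), which lie side by side and share smoothed scores, and Rpl22 to Col8a2 (0.098) and Tmem88b (0.16). The best matches of Rpl11, Gm12407 and Phf13, were less close, at 0.27 and 0.28.

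The comparison between genotypes asks whether loss of the Klf4 enhancer goes with another timing at these genes, of which Rps6 is the nearest to Klf4, 31.3 Mb away. None of the 4 genes changed by limma's moderated test fitted over all 1301 genes, where 0% of genes were called: 0 rose, 0 fell and 4 did not pass, with 0 of 4 at an unadjusted p under 0.05 and 17 of 1301 over the chromosome. The difference, deletion minus control, was 0.12 for Rps20 (SE 0.34), 0.12 for Rps6 (SE 0.35), -0.00048 for Rpl11 (SE 0.34) and -0.22 for Rpl22 (SE 0.34). Benjamini-Hochberg adjusted p-values from limma were 0.999 for Rps20, Rps6 and Rpl22 and no lower for Rpl11. The SE draws on the spread of all genes. The 95% intervals ran from -0.91 to 0.47 for Rpl22, from -0.58 to 0.82 for Rps20, from -0.59 to 0.83 for Rps6 and from -0.70 to 0.70 for Rpl11, and differences of that size were not detectable with 2 profiles per genotype.

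All genes together had a median difference of 0.14, and the differences of the ribosomal protein genes relative to it were -0.017 for Rps20, -0.017 for Rps6, -0.14 for Rpl11 and -0.36 for Rpl22. The median of the 4 differences was 0.060 as deposited, and -0.051 after each profile was centred on its own median. Rpl22 was lower in the deletion profile within both replicate numbers, with differences of -0.15 in number 1 and -0.30 in number 2. Its exact two-sided permutation p was 0.333, the smallest that 2 profiles against 2 can give. Rps6 was higher in the deletion profile within both numbers, by 0.15 and 0.091 (exact permutation p = 0.667), and was at -0.032 after quantile normalization. For Rps20 the difference was 0.37 within number 1 and -0.13 within number 2, and for Rpl11 it was 0.18 and -0.18 (exact permutation p = 1 for both).

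**Figure D3:**
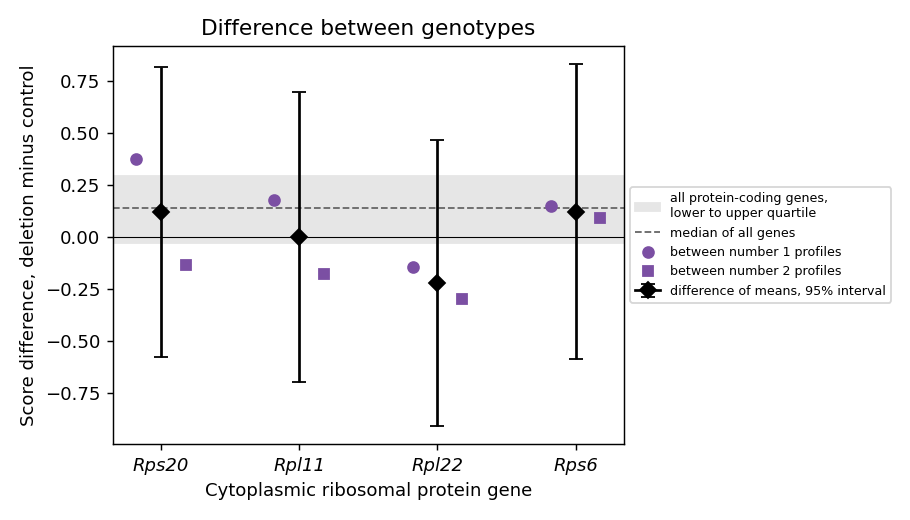
The vertical axis gives deletion minus control (unitless) for each gene with limma's 95% interval in black, the differences between profiles of the same replicate number in purple, and the quartiles (-0.028 to 0.29, grey band) and median (0.14, dashed) of all genes. Rpl22, at -0.22, is below 0 within both numbers, and all 4 intervals cover 0.

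The Rpl22 difference was shared by the DNA beside it. Rnf207, which ends 5.36 kb below Rpl22, differed by -0.20, and Chd5, which begins 4.56 kb above it, by -0.23. Over the gene and 50 kb on each side the difference was -0.19, and over 500 kb on each side it was -0.051. Around Rps6 the neighbours differed by 0.28 (Dennd4c) and 0.08 (Acer2), and around Rps20 by 0.27 (Lyn) and 0.13 (Mos). For Rpl11 they were at -0.12 (Eloa) and -0.25 (Id3).

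Other genes of ribosome production and translation were taken from lists by function. Their counts of early genes stand beside 79.7% early in every profile among all measured protein-coding genes. Of 4 genes for mitochondrial ribosomal proteins, which serve the separate ribosome of the mitochondrion, 3 were early in every profile, with a list median of 2.88. Mrpl37 was early at 3.24 (rank 75), while Mrpl50 was late in all profiles, at -0.93 (rank 1122). Mrpl50 also had the highest difference of this list, 0.46, and Mrpl20 the lowest, -0.055. All 12 measured ribosome biogenesis genes were early in every profile, with a median of 2.80. They ran from Nol9, a polynucleotide kinase of ribosomal RNA processing, at 2.09, to Gnl2, a GTPase of large subunit assembly, at 3.14. Ebna1bp2, a nucleolar protein of large subunit assembly, differed by 0.40 and Nol6 by -0.063.

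The 10 measured translation factors and regulators were also all early in every profile (79.7% of all measured genes were), with a median of 3.02. Pars2, the mitochondrial prolyl-tRNA synthetase, was the earliest at 3.33 (rank 30), and Rps6ka1, a kinase that phosphorylates Rps6, the latest at 1.78 (rank 896). Rps6ka1 had the lowest difference as well. Its scores were 2.05 for control 1, 1.83 for control 2, 1.63 for deletion 1 and 1.61 for deletion 2, a difference of -0.32, and its genotypes did not overlap. Eif4g3, a translation initiation scaffold, had the highest, at 0.36. In this list both deletion profiles were below both controls for 2 of 10 genes and above both for 1 of 10. Over all measured genes these shares were 6.53% and 15.1%. By limma, 0 genes of these lists rose and 0 fell (4, 12 and 10 tested), with 0 at an unadjusted p under 0.05. Members above the median of all genes numbered 3 of 4, 8 of 12 and 7 of 10 in these lists, beside 2 of 4 for Rps20, Rps6, Rpl11 and Rpl22. With lists of this size no list was shown to differ from another.

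**Figure D4:**
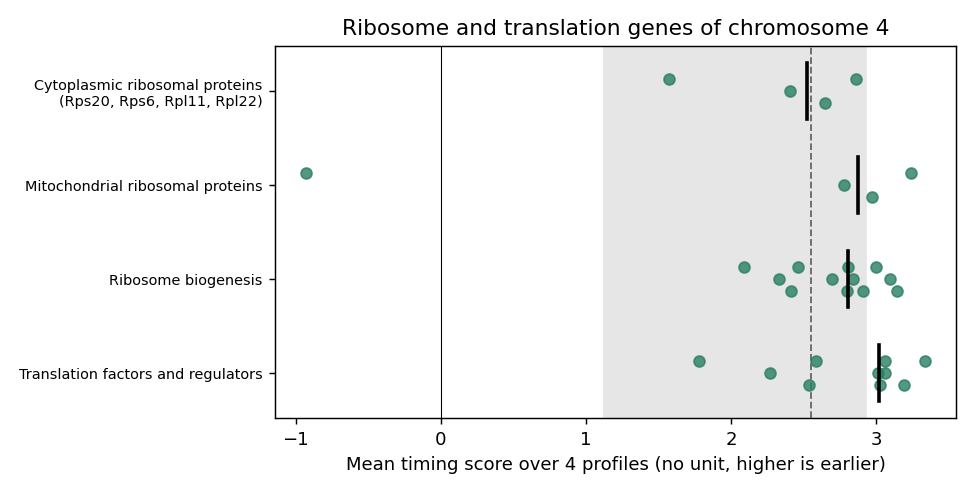
The mean score over the 4 profiles (horizontal axis, unitless, earlier is higher) is plotted for each gene of 4 groups of ribosome and translation genes, with the group median as a black bar and the quartiles and median of all 1301 genes as grey band and dashed line. Mrpl50, at -0.93, is the only gene below 0, and the medians run from 2.52 to 3.02.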

How the data were processed

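Timing scores were deposited as 1 table for chromosome 4, with 1 column per profile. Per the file headers and name, the authors scaled the scores to a common interquartile range, which was 4.60 in each column. The submitters' processing notes name Bowtie2, SAMtools, bedtools and mm10, without versions. The sources used here do not give the smoothing. Of 31301 positions, 30659 had a value in all profiles. A position was read as the start of a 5 kb bin. Columns were assigned to genotypes by name.

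Gene bounds were RefSeq on GRCm38.p6, and 1301 of 1328 protein-coding genes overlapped a bin. Genotypes were compared with limma 3.58.1 (lmFit, eBayes, R 4.3.3) over all genes, two-sided, with Benjamini-Hochberg adjustment at 0.05, and single genes by exact permutation. The limma step was tested on simulated data. Members and lists were chosen with earlier results of these data known. Named genes were the members, nearest neighbours, closest matches and each list's extremes. Some results fixed in the design are not reported here. Alternatives are given in the closing section.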

Additional observations from a re-analysis of the deposited data

How the results depend on the processing

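Calls did not depend on the processing for the ribosomal protein genes: 0 of 4 were called in any of 14 alternatives, and over all genes 0 were called except 4 without deletion replicate 1, none of them a member. Leaving out profiles therefore gave 0 to 4 calls. Unadjusted p under 0.05 were then seen for 2 to 182 genes, and a lone profile was assumed to vary like the others. The replicate block gave 0 calls (165 genes had an unadjusted p under 0.05) and a limma adjusted p of 0.65 for Rpl22, whose adjusted p ran from 0.639 upwards over its alternatives. Labels do not say that numbers are pairs. Deviations of same-numbered profiles correlated across genes at 0.33. Rpl22 kept its direction in all 12 alternatives, from -0.40 to -0.13. Not all of these could have turned it. With both deletion profiles below both controls, leaving out any profile cannot reverse the sign, and the replicate block leaves the difference unchanged. The median difference was -0.13 after quantile normalization and ran from -0.15 to 0.058 with profiles left out. After quantile normalization Rps20 and Rps6 turned to -0.10 and -0.032. Median centring with the block was added after seeing the data. With profiles left out, Rps20 ran from -0.10 to 0.35, Rps6 from -0.13 to 0.38 and Rpl11 from -0.22 to 0.22. Turned values were -0.13 for Rps6 and 0.043 for Rpl11 without control replicate 1, -0.10 for Rps20 without deletion replicate 1, and -0.10 and 0.22 for Rps6 and Rpl11 without deletion replicate 2. Ranks stayed within 903 to 933 (Rps20), 342 to 474 (Rps6), 627 to 814 (Rpl11) and 528 to 636 (Rpl22). The causes were not tested. Depth behind the scores is unknown.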

Other observations

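Ribosomal protein genes leave many pseudogene copies in mammalian genomes, and 14 annotated pseudogenes of cytoplasmic ribosomal protein genes lie on chromosome 4 (a list chosen after the annotation was seen). Of these, 11 scored above 0 in every profile and 3 below 0 in every profile, with a median of 2.30. Over all 535 measured pseudogenes of the chromosome, transcribed ones not counted, 50.8% scored above 0 in every profile and the median was 0.53. Of the 14 copies, 2 are annotated as transcribed, and without them 9 of 12 scored above 0 in every profile, with a median of 2.00. The late copies were Rpl23a-ps6 at -2.13 ± 0.53, Rpl17-ps4 at -2.87 ± 0.56 and Rps18-ps1 at -2.97 ± 0.24 (mean and SD over the 4 profiles). Rpl38-ps1 and Rpl36-ps8 were the earliest, at 3.15 ± 0.30 and 3.13 ± 0.24, above Rps20, Rps6, Rpl11 and Rpl22. Rps10-ps3, at 1.14 ± 0.10, begins 143 kb beyond Rps20, past Mos, Plag1 and Chchd7, on the same early domain. These copies resemble their parent genes in sequence, and the sources used here do not give how reads matching several copies were treated.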
